A study of Mus musculus with 7 samples.

Results

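The 58 genes described here work in the cell cycle, 28 in S phase, when DNA is copied, and 30 in mitosis, when the copies are parted. They were chosen by name and looked up by gene symbol among the 24552 rows of the deposited raw count table, which holds all 58. The table covers 7 libraries of EpCAM+ cholangiocytes, the epithelial cells that line bile ducts, isolated fresh from livers of Foxp3GFPDTR mice. In this strain Foxp3-expressing regulatory T cells carry the diphtheria toxin receptor. All animals ate a DDC diet, which injures bile ducts, for 10 days. The PBS group (4 libraries) received saline by intraperitoneal injection, and the DT group (3 libraries) received diphtheria toxin at 1 µg/kg, in both groups every 48 h. Each group thus carries the same transgene and the same diet, and no library from an uninjured liver or from mice without the transgene was analysed here. The comparison asks whether cell cycle transcripts of injured duct epithelium differ when regulatory T cells are targeted. The labels do not say which animals, or how many, gave each library, so the spread between libraries may be partly technical.

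Before a cell copies its DNA, the Mcm2 to Mcm7 helicase is loaded on replication origins, and cyclin E with E2F factors opens S phase. Cyclin A and B with Cdk1 then drive entry into mitosis, where the spindle, the kinetochores and the checkpoint kinases part the chromosomes, and Cdc20 with the anaphase-promoting complex ends it. Bile duct epithelium is mostly at rest in healthy liver and divides during the ductular reaction to injury. S phase genes are classically read through E2F sites in their promoters. Many mitosis genes carry a CHR element (cell cycle genes homology region), read by the DREAM and MuvB complexes, together with CCAAT boxes, which bind NF-Y.

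Promoter sequence is a feature that the choice of genes did not use. RefSeq promoter windows of 300 bases (GRCm38.p6, from 250 bases before to 50 after the start of the gene) were found for 50 of the 58 genes, 24 in S phase and 26 in mitosis, with 27 windows in each set because some genes have more than 1. The motifs searched on both strands were E2F, spelled TTCCCGC, in a further form TTCGCGC, in the third form TTGCCGC and in the last form TTGGCGC, CHR, spelled TTTGAA or with a central CpG TTCGAA, and the CCAAT box. Matches may overlap, and an E2F match on each strand can share bases. The 3 S phase stretches below were chosen for their E2F matches and the 3 mitosis stretches for their CHR matches. Each runs from 180 bases to 1 base before the start of the gene, 5′ to 3′ on the strand of the gene, with E2F, CHR and CCAAT matches of either strand in capitals.
Mcm5: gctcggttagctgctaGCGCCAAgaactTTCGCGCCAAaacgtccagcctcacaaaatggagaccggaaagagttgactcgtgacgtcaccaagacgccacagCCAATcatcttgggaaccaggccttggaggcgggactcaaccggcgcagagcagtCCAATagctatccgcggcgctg
Mcm6: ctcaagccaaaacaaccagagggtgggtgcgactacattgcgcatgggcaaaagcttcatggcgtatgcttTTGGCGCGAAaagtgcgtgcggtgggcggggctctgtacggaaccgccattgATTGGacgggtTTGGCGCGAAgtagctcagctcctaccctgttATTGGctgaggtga
Pola1: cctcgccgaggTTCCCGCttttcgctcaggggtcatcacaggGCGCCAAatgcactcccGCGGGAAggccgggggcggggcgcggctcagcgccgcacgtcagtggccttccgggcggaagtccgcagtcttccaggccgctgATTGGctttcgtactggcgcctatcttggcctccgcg
Mki67: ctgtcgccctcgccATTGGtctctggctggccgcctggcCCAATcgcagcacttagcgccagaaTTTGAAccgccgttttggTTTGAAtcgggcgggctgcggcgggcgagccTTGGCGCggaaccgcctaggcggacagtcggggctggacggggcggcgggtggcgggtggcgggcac
Top2a: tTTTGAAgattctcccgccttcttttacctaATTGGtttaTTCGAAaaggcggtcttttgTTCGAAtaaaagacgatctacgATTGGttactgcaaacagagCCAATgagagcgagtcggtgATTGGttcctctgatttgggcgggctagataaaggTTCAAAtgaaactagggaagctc
Ccnb2: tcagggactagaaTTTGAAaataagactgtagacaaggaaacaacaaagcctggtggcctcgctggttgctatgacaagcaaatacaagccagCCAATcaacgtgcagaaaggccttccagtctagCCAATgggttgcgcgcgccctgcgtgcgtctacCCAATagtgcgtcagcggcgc

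The stretches lie at chr8:75109329-75109508 on the plus strand (Mcm5) and, on the minus strand, at chr1:128359706-128359885 (Mcm6), chrX:93632156-93632335 (Pola1), chr7:135716380-135716559 (Mki67), chr11:99024190-99024369 (Top2a) and chr9:70421555-70421734 (Ccnb2). These are RefSeq positions in GRCm38.p6, another build than the mm9 of the counts, and genes were matched by symbol alone. The Mcm6 stretch holds the run TTGGCGCGAA at 2 places, where an E2F match on each strand overlaps the other. Their first bases lie 109 and 46 bases before the start. In Mki67, 2 CHR matches begin 116 and 98 bases before the start and an E2F match begins at 67. The Top2a stretch holds 4 CHR matches. In Ccnb2 the CHR match begins 167 bases before the start and the 3 CCAAT boxes begin at 87, 54 and 21.

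E2F matches were more common in the S phase windows and CHR matches in the mitosis windows. An E2F match was present in 17 of 27 S phase windows (63.0%) and 7 of 27 mitosis windows (25.9%), against 9.57% of the 32851 windows of all genes in the table. A CHR match was present in 4 S phase windows (14.8%) and 21 mitosis windows (77.8%), against 19.2% of all windows. The CCAAT box was in 59.3% of S phase, 81.5% of mitosis and 37.4% of all windows. At least 2 CCAAT matches were in 17 mitosis windows (63.0%) and 10 S phase windows (37.0%), against 11.7% of all. These shares describe letters in a window and were not tested.

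**Figure D1:**
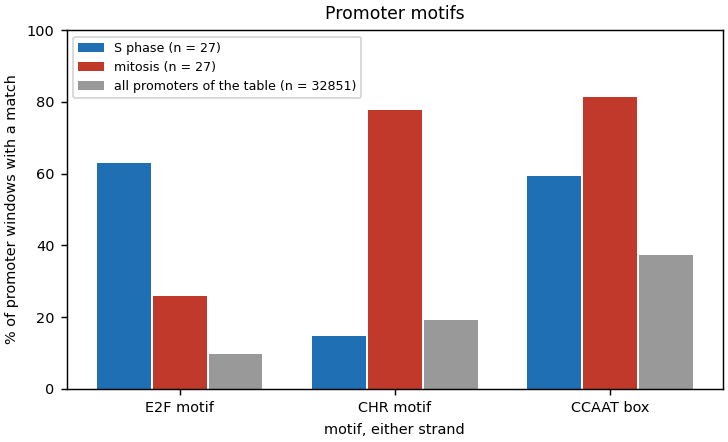
The plot of promoter motifs shows the percentage of 300-base RefSeq windows (vertical axis) with a match to each motif on either strand, for S phase genes (blue, n = 27 windows), mitosis genes (red, n = 27) and all genes of the table (grey, n = 32851). E2F matches are in 63.0% of S phase windows and CHR matches in 77.8% of mitosis windows.

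Total counts ran from 4805018 to 6285624 per library, and the libraries held counts for 5419 (DT 1) to 8361 (PBS 4) genes. The 10 cholangiocyte markers fixed for the check, among them Epcam, Krt7 and Krt19, made up 1.36% to 1.95% of counts in each library, and all 10 had counts in some library. The 16 macrophage and monocyte markers in the table had 274 to 618 counts in PBS 1 to 3, 6454 in PBS 4 and 1932 to 3590 in the DT libraries. Of these 16, 14 had counts in some library, and the defining macrophage gene Adgre1 was at 0 in all 7. For the 19 hepatocyte markers together the share was 0.215% to 0.347% in PBS and 0.385% to 0.488% in DT, so that every DT library lay higher. Of the 19, 15 had counts in some library, and Cyp3a11, Cps1, Mup3 and Tat were at 0 in all 7. Gc (57449 counts over all libraries) and Alb (50009) were the best read. Alb lay higher in every DT library, the groups overlapped for Gc, and Apoa1 had reads in PBS alone. The part of hepatocytes in the cell cycle values was not tested. The 19 T and NK cell markers in the table summed to at most 822 counts, with Cd3e and Foxp3 at 0 in all libraries. Gzma accounted for 821 of them (DT 1) and was at 286 in DT 2, without reads in any PBS library. Gzmb (195) and Icos (194) were read in PBS 4 alone. Neutrophil markers reached 1806 in PBS 4 and 1017 in DT 2, against at most 330 elsewhere. Endothelial markers summed to 1026 counts in DT 1 and to at most 213 in the other libraries. Dendritic cell markers reached at most 609 (DT 2), stellate cell and fibroblast markers 690 (PBS 2) and mesothelial markers 937 (PBS 4). The part of T, NK, neutrophil and these other cells in the cell cycle values was not tested. The 8 B and plasma cell markers were at 0. Y-linked genes had reads in PBS 1 (2048 counts) and in all DT libraries (880 to 1681), and 0 in PBS 2 to 4. The labels give no sex. Since only PBS libraries lacked these reads, sex and treatment cannot be fully told apart in the comparison of the groups.

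Cell cycle transcripts were present in every library but made up a small share of its counts, and each library held another subset of them. Of the 58 genes, 53 had at least 1 count in some library. Cdc6, a licensing factor, Ttk, a checkpoint kinase, Cdca8, a subunit of the chromosomal passenger complex, the kinesin Kif2c and the spindle protein Nusap1 had 0 counts in all 7. Of all 406 values, 210 were 0, 15 lay from 1 to 9 counts, 38 from 10 to 99 and 143 at 100 or more, up to 1720. A value was thus mostly either 0 or at least 100. In S phase 44.4% of values were 0 and in mitosis 58.6%, against 39.5% over the 11487 genes with any count. The first 2 shares include genes at 0 in all 7 libraries, 1 in S phase and 4 in mitosis. The share over all genes leaves such genes out, so the sets are not alike and the member shares are raised against it. Only 6 genes (Mcm3, Mcm5, Mcm6, Mcm7, Pcna and Kif23) had counts in all 7 libraries, 11.3% of the 53, against 24.2% of all genes with counts.

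**Figure D2:**
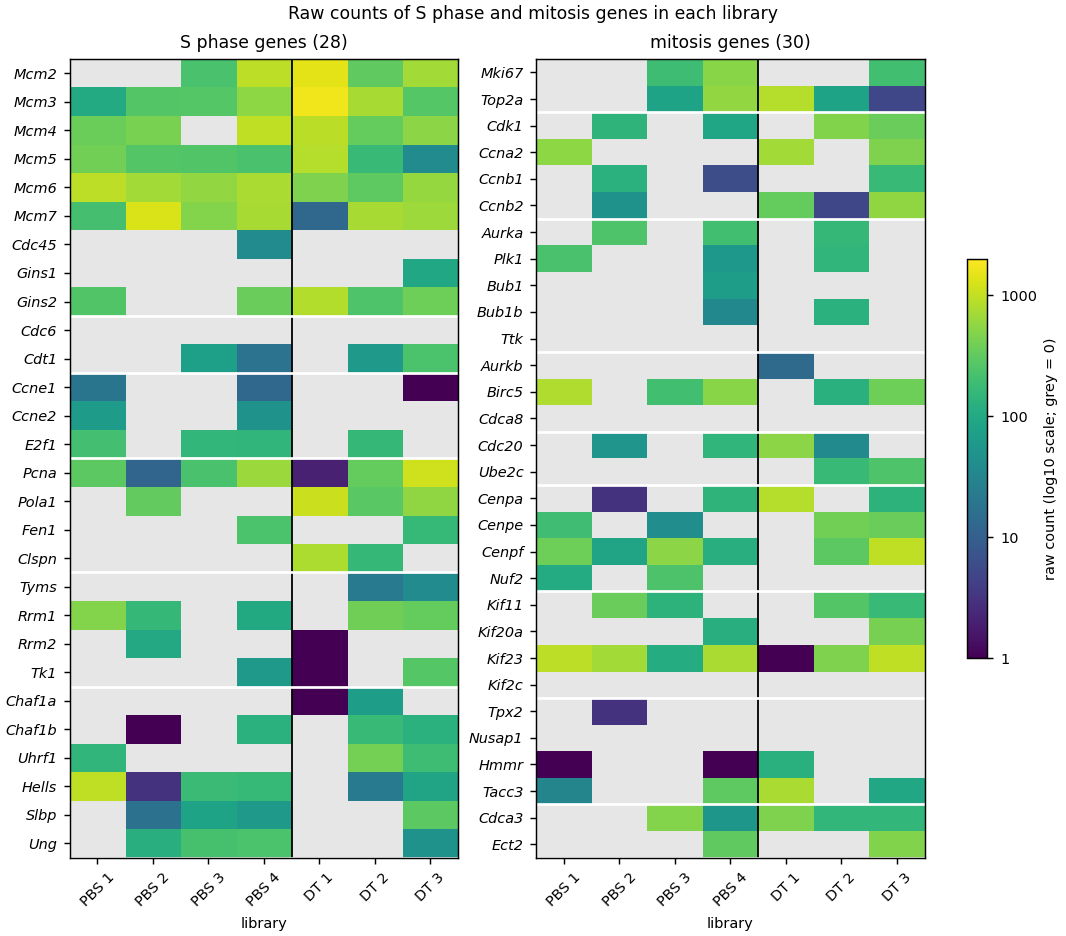
The heat map shows the raw count (colour, log10 scale, grey for 0) of each of the 28 S phase genes (left) and 30 mitosis genes (right) in each library, with white lines between roles and a black line between PBS and DT. The Mcm2 to Mcm7 rows are filled in nearly every library, while most mitosis rows are grey in several libraries of both groups.

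A count of 0 says little about these genes. By counting error alone it allows up to 3 counts in a library. Yet over all genes, 43.5% of values were 0 where the other libraries of the group averaged 100 to 200 counts, 25.6% at 200 to 500 and 8.15% at 500 to 1000. For the cell cycle genes the matching shares were 47.5% of 59 values, 32.0% of 75 and 12.9% of 31. Detection in 1 library and not in another was therefore common at the levels at which these genes were read.

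**Figure D3:**
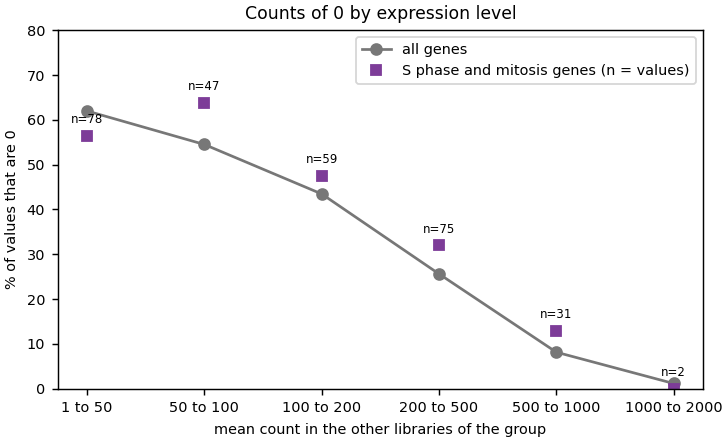
The plot of zeros by level shows the percentage of values that are 0 (vertical axis) by the mean count of the same gene in the other libraries of its group (horizontal axis), for all genes (grey) and for the S phase and mitosis genes (purple, n = values). Both fall from over 50% below 100 counts to 12.9% or less above 500 counts.

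The number of cell cycle genes with counts differed more between libraries than between groups. PBS 1 to 4 held 22, 23, 20 and 38 of the 58, and DT 1 to 3 held 23, 32 and 38. The 3 libraries with the most genes of any kind, PBS 4, DT 3 and DT 2 (8361, 7920 and 7827 genes), also held the most cell cycle genes. Split by phase and in that order, S phase genes numbered 13, 13, 11 and 20, then 13, 18 and 21, and mitosis genes 9, 10, 9 and 18, then 10, 14 and 17. Genes with counts only in PBS were Cdc45, Ccne2, Bub1, Nuf2 and Tpx2, 9.43% of the 53, against 13.8% of all genes with counts. Genes with counts only in DT were Gins1, Clspn, Tyms, Chaf1a, Aurkb and Ube2c, 11.3% against 9.78%. These shares lie near the background. PBS 4, DT 3 and DT 2 were also the libraries with the most macrophage marker counts (6454, 3590 and 2719), and the part of these cells in the detection was not tested.

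S phase genes together made up 0.0901% of counts in PBS 1 (Wilson 95% interval 0.0875% to 0.0928%), 0.0714% in PBS 2 (0.0691% to 0.0737%), 0.0572% in PBS 3 (0.0551% to 0.0593%) and 0.116% in PBS 4 (0.113% to 0.119%). In DT 1 to 3 the share was 0.143% (0.140% to 0.146%), 0.0852% (0.0828% to 0.0876%) and 0.107% (0.105% to 0.110%). DT 1 was highest and PBS 3 lowest, and the groups overlapped, with means of 0.0836% ± 0.0253 in PBS (SD, n = 4) and 0.112% ± 0.0291 in DT (SD, n = 3). Mitosis genes made up 0.0656% (0.0634% to 0.0679%), 0.0338% (0.0323% to 0.0355%), 0.0420% (0.0402% to 0.0438%) and 0.0733% (0.0711% to 0.0756%) in PBS 1 to 4. In DT 1 to 3 they made up 0.0815% (0.0792% to 0.0839%), 0.050% (0.0482% to 0.0518%) and 0.0971% (0.0947% to 0.0996%). DT 3 and DT 1 lay above every PBS library and DT 2 lay within the PBS range, with means of 0.0537% ± 0.0188 in PBS and 0.0762% ± 0.0240 in DT. The difference between the means was about as large as the SD within a group in each case. The intervals cover counting error only and were much narrower than the spread between libraries. Since the genes were chosen with earlier results of these data known, the sums were not tested. In bulk RNA, a different share of cycling cells and a different level of these transcripts per cell cannot be told apart.

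The library with most S phase counts was not the one with most S phase genes detected. DT 1 held the largest S phase share with 13 of 28 genes detected, and its largest entry was Mcm3, with 21.2% of the sum. DT 3 held 21 of 28, led by Pcna with 16.9%. The log2 ratio of the DT mean to the PBS mean was 0.42 for S phase and 0.50 for mitosis. It ran from 0.20 (without DT 1) to 0.62 (without PBS 4) for S phase and from 0.29 (without DT 3) to 0.73 (without DT 2) for mitosis. Split into 15 roles, the mean share was higher in DT for 10 roles and lower for 5, and the libraries of the groups overlapped for all roles but 1. For Cdk1 and its cyclins it was 0.00478% ± 0.00504 in PBS and 0.0170% ± 0.00810 in DT, with DT 2 below PBS 1. The 5 lower roles were the G1 to S switch (0.00322% ± 0.00243 and 0.000919% ± 0.00158), the chromosomal passenger complex (0.00757% ± 0.00714 and 0.00278% ± 0.00291), mitotic kinases (0.00397% ± 0.00280 and 0.00251% ± 0.00436), kinesins (0.0150% ± 0.00685 and 0.0124% ± 0.0124) and new chromatin and repair (0.0115% ± 0.00819 and 0.00781% ± 0.00675). The role without overlap, Cdc20 and Ube2c, had 0.000929% ± 0.00127 in PBS and 0.00565% ± 0.00334 in DT. Its counts were all from Cdc20 in DT 1 (540) and all from Ube2c in DT 3 (243). For each of these genes alone the groups overlapped. Of all tested single genes, 6.31% had no overlap.

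**Figure D4:**
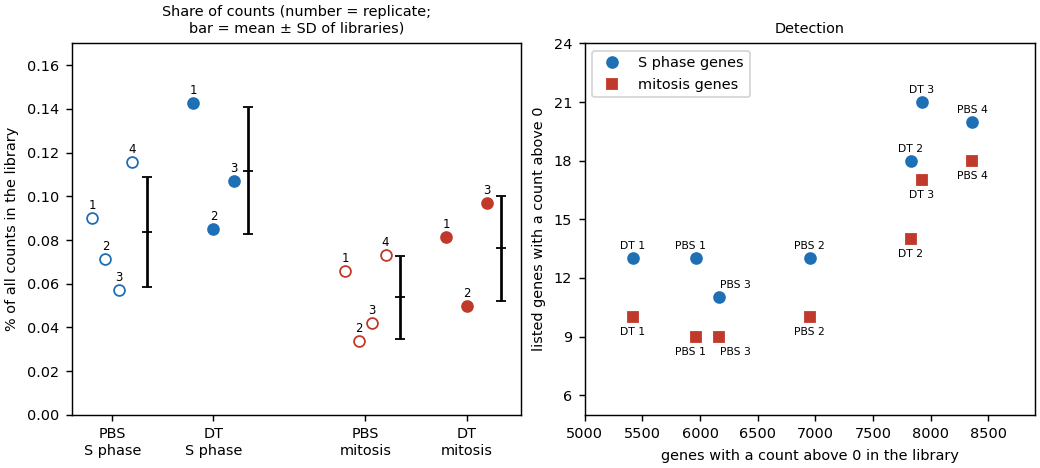
The left panel shows the percentage of all counts in S phase (blue) and mitosis genes (red) in each library, open for PBS and filled for DT, with the mean and SD of each group. The right panel shows how many genes of each set had a count above 0 against the number of all genes with counts. The groups overlap on the left, and PBS 4, DT 2 and DT 3 are highest on the right.

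Between the groups, no S phase or mitosis gene passed the test in either direction. The filter on low counts, which asks for about 10 counts in at least 3 libraries, left 33 of the 58 genes (17 in S phase, 16 in mitosis), and 20 further genes had counts but were not tested. By the edgeR quasi-likelihood test over 7688 genes, 0 of the 33 had an adjusted p under 0.05, and each had an adjusted p of 1.00. Over all tested genes 0.0390% passed. At an unadjusted p under 0.05 there were also 0 of the 33, against 3.50% of all tested genes (1.39% higher and 2.11% lower in DT). DESeq2 called 0 as well, with 0 at its unadjusted p under 0.05. It gave no adjusted p for 5 of the 33, which therefore could not be called. Log2 fold changes, DT against PBS, were positive for 23 and negative for 10 genes (69.7% positive, against 49.3% of all tested genes), with medians of 0.61 in S phase and 0.66 in mitosis, against -0.02 over all genes. Their SE ran from 1.03 to 3.67, with a median of 3.01. Without PBS 4 the medians were 1.15 and 1.20, without DT 3 the S phase median was 0.13 and without PBS 1 the mitosis median was 0.43. Other models moved the medians further. With a macrophage score in the model the mitosis median was 1.44. With the presence of Y-linked reads in it, chosen after seeing the data, the mitosis median was 8.84. That fit sets DT against PBS 1 alone, the only PBS library with Y-linked reads. Genes at 0 in PBS 1, such as Mki67 and Aurka, then have a PBS side at 0, so 8.84 is not read as an effect.

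**Figure D5:**
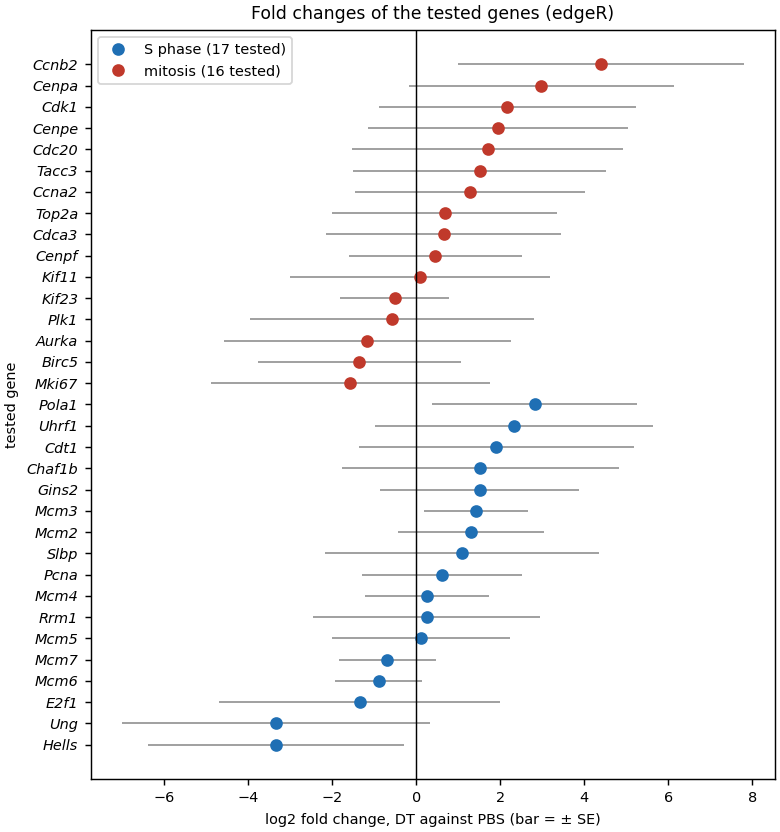
The plot of fold changes shows the log2 fold change of each of the 33 tested genes, DT against PBS, with its SE as a bar, in blue for S phase and red for mitosis. Values run from -3.34 (Hells) to 4.39 (Ccnb2), the bars of most genes cross 0, and no gene passed the test.

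The helicase genes were the best covered. Mcm2 to Mcm7 encode the 6 subunits of the ring that unwinds DNA, and their summed counts were 2019, 2963, 1817 and 4135 over the PBS libraries, then 5423, 2592 and 2783 over the DT libraries. Values of single genes follow in the same library order. DT 1 and PBS 4 stood above the rest. Mcm6 had 939, 702, 579 and 750 counts in the PBS libraries and 456, 301 and 598 in the DT libraries. In CPM (counts scaled to a common library total, by TMM), PBS averaged 147 ± 26.4 (SD, n = 4) and DT averaged 79.2 ± 24.7 (SD, n = 3), and the highest DT library lay below the lowest PBS library. Mcm6 was the only one of the 58 genes whose groups did not overlap in CPM, where 6.31% of all tested genes had no overlap. Its log2 fold change was -0.89 (SE 1.03) and did not pass.

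Other subunits of the same ring had their high and low values in other libraries. Mcm3 had 105, 260, 266 and 550 counts in PBS and 1720, 739 and 271 in DT, highest in DT 1. Mcm2 had 0, 0, 228 and 926 in PBS and 1471, 311 and 692 in DT, and so was at 0 in 2 PBS libraries and present in every DT library. Mcm7 had 213, 1316, 490 and 730 in PBS and 13, 732 and 647 in DT. Thus DT 1 had the highest counts of Mcm2 and Mcm3 and the lowest of Mcm7. The log2 fold changes were 1.42 (SE 1.23) for Mcm3, 1.30 (SE 1.75) for Mcm2 and -0.69 (SE 1.16) for Mcm7. Without DT 1 they were 0.65, 0.63 and -0.14. Among the partners that complete the active helicase, Gins2 was tested, while Cdc45 had counts in PBS 4 alone (39) and Gins1 in DT 3 alone (95).

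Genes of licensing and of the switch into S phase were sparse. Cdt1, which loads the helicase with Cdc6, had 0, 0, 72 and 18 counts in PBS and 0, 60 and 230 in DT. E2f1, the activator of the S phase promoters, had 205, 0, 153 and 149 in PBS and 0, 158 and 0 in DT. It was present in 3 of 4 PBS libraries and 1 of 3 DT libraries. The cyclin E genes Ccne1 and Ccne2 had at most 65 counts in any library and were not tested.

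At the replication fork, Pcna, the sliding clamp of the DNA polymerases, had 290, 12, 226 and 632 counts in PBS and 2, 333 and 1140 in DT. Each group held a library nearly without it, PBS 2 and DT 1. Its log2 fold change was 0.61 (SE 1.90), and -0.87 without DT 3. Pola1, the catalytic subunit of the polymerase that primes new strands, had 0, 319, 0 and 0 in PBS and 1074, 287 and 572 in DT. Each DT library thus had reads while 3 of 4 PBS libraries had none, and the groups overlapped at PBS 2 and DT 2. Its log2 fold change was 2.82 (SE 2.43). Without PBS 2 the PBS group is at 0. Clspn, a checkpoint mediator at the fork, had 0 counts in PBS and 778, 156 and 0 in DT.

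Of the genes that supply nucleotides, only Rrm1, the large subunit of ribonucleotide reductase, was tested. It had 491, 160, 0 and 102 counts in PBS and 0, 385 and 331 in DT, so that both groups included a library at 0. Of the genes for new chromatin and repair, Hells, a chromatin remodeler tied to DNA methylation, had 963, 3, 179 and 162 counts in PBS and 0, 22 and 84 in DT. Ung, which removes uracil from DNA, had 0, 122, 219 and 231 in PBS and 0, 0 and 48 in DT. Both had at most 84 counts in every DT library, and so did at least 1 PBS library. Their log2 fold changes were -3.34 (SE 3.05) for Hells and -3.33 (SE 3.67) for Ung. Without PBS 1, Hells was at -1.89. The only DT reads of Ung lay in DT 3, and without that library the DT group is at 0 and no fold is given.

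Mki67, the gene of the Ki-67 proliferation antigen, had counts in PBS 3 (188), PBS 4 (518) and DT 3 (202) and 0 in the other libraries. Top2a, the topoisomerase that untangles sister chromatids, had 0, 0, 81 and 586 counts in PBS and 856, 82 and 5 in DT. The highest library was PBS 4 for Mki67 and DT 1 for Top2a, although DT 1 had no Mki67 reads. Log2 fold changes were -1.57 (SE 3.31) for Mki67 and 0.67 (SE 2.69) for Top2a. Without DT 3 the DT group has no Mki67 reads and no fold is given, and without DT 1 the Top2a value was -2.04.

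Among Cdk1 and its cyclins, Ccnb2 had the smallest p of the 33 tested genes. Ccnb2, a B-type cyclin of mitotic entry, had 0, 49, 0 and 0 counts in PBS and 327, 5 and 559 in DT. Its log2 fold change was 4.39 (SE 3.39), with an edgeR adjusted p of 1.00, and without PBS 2 the PBS group has no reads of it. Ccna2, the cyclin of S phase and early mitosis, had 555, 0, 0 and 0 in PBS and 698, 0 and 455 in DT. For both, reads lay in 1 PBS library and in most DT libraries, and the groups overlapped.

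Kinases and regulators of the spindle were mostly absent from a library or present at 100 or more counts. Aurka, which matures the spindle poles, had 0, 246, 0 and 201 counts in PBS and 0, 157 and 0 in DT. Birc5, the survivin subunit of the chromosomal passenger complex, had 817, 0, 202 and 524 in PBS and 0, 123 and 375 in DT, a log2 fold change of -1.35 (SE 2.42). Each group held a library without Birc5. Cdc20, the activator of the anaphase-promoting complex, had 0, 53, 0 and 148 in PBS and 540, 37 and 0 in DT. Its partner Ube2c, the ubiquitin-conjugating enzyme of that complex, had 0 counts in PBS and 0, 169 and 243 in DT.

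At the kinetochore, Cenpf had counts in all libraries but DT 1, with 370, 84, 530 and 120 in PBS and 0, 295 and 978 in DT. Cenpa, the histone H3 variant of centromeres, had 0, 3, 0 and 139 in PBS and 857, 0 and 137 in DT, a log2 fold change of 2.98 (SE 3.16) that was 0.76 without DT 1. Kif23, a kinesin of the central spindle in cytokinesis, was the only mitosis gene with counts in every library, although DT 1 had a single read. It had 940, 686, 111 and 753 counts in PBS and 1, 453 and 973 in DT, a log2 fold change of -0.51 (SE 1.29) that was 0.05 without DT 1. Tacc3, a spindle microtubule protein, had 32, 0, 0 and 305 in PBS and 753, 0 and 94 in DT. Cdca3, a trigger of mitotic entry, had 0, 0, 490 and 55 in PBS and 461, 151 and 151 in DT. No mitosis gene had every DT library above or below every PBS library.

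Genes around this core, from 6 lists of the same pathways, did not pass the edgeR test either. The table held 177 of their genes, of which 85 were tested, with 0 higher and 0 lower, where 0.0390% of all tested genes passed. At an unadjusted p under 0.05 by edgeR there were 7 of the 85 (8.24%, 4 higher and 3 lower in DT), against 3.50% of all tested genes. All 7 had a whole group at 0 and so passed the filter on low counts through the other group alone. Their p therefore follow in part from the filter, and the share is not read as a difference between the groups. The groups did not overlap for 8 of the 85 (9.41%, 7 higher and 1 lower in DT), against 6.31%. Among the higher ones, Rb1, Cenph, Ncapd3 and Cdc27 were at 0 in every PBS library and passed the filter through DT alone. Their lack of overlap follows from the filter, so this share is not read as a difference between the groups either. Positive log2 fold changes, which 49.3% of all tested genes had, were spread over the lists as follows. Of 22 tested replication genes 16 had positive log2 fold changes (median 0.51), and of 20 further mitosis genes 12 were positive (median 0.28). Of 18 tested genes of the G1 cyclin and E2F-Rb network 5 were positive and 13 negative (median -0.47), of 12 anaphase-promoting complex subunits 6 and 6 (median -0.15), and of 10 cohesin genes 3 and 7 (median -0.59). Of the 85, 7 had a whole group at 0. With these genes set to the floor of 3 counts per library the medians were the same. This had to be so, since their folds stayed on the same side of each median.

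The best read genes of the G1 network and of the Cdk inhibitors had counts in every library. Ccnd1, the cyclin D1 gene that drives G1, had 4382, 1874, 3954 and 2149 counts in PBS and 6656, 3122 and 4081 in DT, 615 ± 253 and 804 ± 270 CPM (log2 fold change 0.39, SE 0.34, and 0.06 without DT 1). Cdk6, a kinase partner of cyclin D, had 4508, 2348, 3646 and 1753 in PBS and 707, 2774 and 2440 in DT (-0.77, SE 0.43, and -0.38 without DT 1). Cdkn1a, the p21 inhibitor of Cdk complexes, had 506, 1480, 1796 and 1839 in PBS and 1243, 3516 and 2337 in DT (0.60, SE 0.48, and 0.14 without DT 2). All 3 overlapped between the groups. Cdkn1b, the p27 inhibitor, was absent from some libraries, with 0, 620, 720 and 398 counts in PBS and 0, 331 and 0 in DT.

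The best read genes of the other lists also overlapped, with the exception of Anapc13. Lig1, the ligase that joins Okazaki fragments, averaged 194 ± 32.1 CPM in the PBS group and 282 ± 111 CPM in the DT group, and Rpa1, which coats single-stranded DNA, at 68.0 ± 47.1 and 94.3 ± 85.7 CPM. The checkpoint gene Bub3 was at 120 ± 89.1 and 134 ± 166 CPM, and the condensin gene Smc4 at 111 ± 87.9 and 140 ± 120 CPM. Of the cohesin genes, the loader Nipbl was at 285 ± 136 and 330 ± 160 CPM and the ring subunit Smc1a at 296 ± 118 and 265 ± 153 CPM. The anaphase-promoting complex subunit Anapc5 was at 93.9 ± 71.9 and 96.4 ± 56.7 CPM. Anapc13, another subunit, had 347, 0, 379 and 77 counts in PBS and 570, 492 and 534 in DT. Its DT libraries all lay above its PBS libraries (log2 fold change 1.22, SE 2.07), and it did not pass either, with adjusted p = 1.00 by edgeR.

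DESeq2 called 6 genes of these lists, chosen here after their values were seen, where it called 1.44% of all tested genes. Each had a whole group at 0 and passed the filter through the other group alone, so these calls are not read as a difference between the groups. Rb1, the retinoblastoma gene that holds E2F factors back, was at 0 in all 4 PBS libraries, with 882, 189 and 413 counts in the DT libraries. The anaphase-promoting complex subunit Cdc27 (275, 157 and 519 in DT), the centromere gene Cenph (102, 517 and 184) and the condensin subunit Ncapd3 (30, 326 and 271) were also at 0 in PBS. In the other direction Cdc26 had 651, 492, 75 and 0 counts in PBS and E2f3, an activating E2F, 0, 148, 312 and 287, with 0 in every DT library. DESeq2 adjusted p ran from 0.00124 (Rb1) to 0.0499 (E2f3), and the edgeR adjusted p was 1.00 for each. No fold is given, since 25.6% of values over all genes were 0 even at means of 200 to 500 counts.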

How the data were processed

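Libraries of 7 cholangiocyte samples (4 PBS, 3 DT) were made from total RNA with the Lexogen QuantSeq FWD kit, per the labels' protocols, which reads transcript 3′ ends. The authors deposited 1 table of raw counts by gene symbol, without any scaling. The submitters' processing notes name build mm9. For the aligner, counter, annotation and any molecular identifiers, nothing is given in the sources used here. Sample titles gave the groups and the replicate numbers.

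Counts of 7688 genes kept by filterByExpr (97.5% of all counts) were scaled by TMM and compared by the robust quasi-likelihood F test of edgeR 4.0.16 (R 4.3.3), two-sided, with Benjamini-Hochberg adjustment over these genes and a threshold of 0.05. CPM used TMM-scaled totals. SE is the absolute log2 fold change over the root of F. The test code was tested on simulated data. A gene with 1 or more counts was taken as detected. Alternatives were other scaling factors and filters, DESeq2 1.42.0, limma-voom (limma 3.58.1), the replicate block, a macrophage score and leaving out each library. A covariate for Y-linked reads was chosen after seeing the data. The genes and lists were chosen with earlier results of these data known. Values per library are given for the 5 tested genes with the smallest p in each direction, the gene with the largest count sum in each role, and Mki67, Top2a, Pcna, Mcm2, Ccnd1 and Cdkn1a. From each further list the 2 genes with the largest sums were taken. Ccne1, Ccne2, Cdc45, Gins1, Clspn, Ube2c and others outside this rule were named after their values were seen. Promoters came from the RefSeq table (GRCm38.p6). Figures were drawn with matplotlib 3.10.9.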

Additional observations from a re-analysis of the deposited data

Results flagged for a closer look

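For 8 of 39 values checked, 1 PBS library was far from the other 3 by Dixon's criterion. For roughly normal values chance would give 1.95, about 1 in 20. That rate does not hold here, since 210 of the 406 cell cycle values were 0. A gene with reads in 1 PBS library alone is always flagged. The 8 flags are therefore not read as more than chance gives. The DT group, with 3 libraries, was not tested. In each case the gap to the nearest other PBS library is given as a share of the whole range. It was 1 for Ccnb2 (PBS 2, 9.66 CPM), Pola1 (PBS 2, 62.9 CPM) and Ccna2 (PBS 1, 108 CPM), with 0 in the other 3 PBS libraries. It was 0.978 for Cenpa (PBS 4, 27.4 CPM against at most 0.591), 0.856 for Top2a (PBS 4, 116 CPM against at most 16.7), 0.897 for Tacc3 (PBS 4, 60.2 CPM against at most 6.21) and 0.892 for Cdca3 (PBS 3, 101 CPM against at most 10.9). For the number of mitosis genes detected it was 0.889, with 18 in PBS 4 against 9 or 10 in the other PBS libraries.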

How the results depend on the processing

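No S phase or mitosis gene passed the threshold under any of the 16 alternatives. Over all genes, higher and lower calls numbered 0 and 3 by edgeR, 1 and 7 with no filter, 1 higher where genes needed an average log2 CPM of at least 3, 6 and 6 by limma-voom, 29 and 82 by DESeq2 and, with the Y-linked covariate, 23 higher. With 1 library left out, 0 to 1 were higher and 1 to 4 lower. DESeq2 called 4 higher and 2 lower genes of the further lists. With the replicate block 6 genes were higher and 6 lower. The median log2 fold change was then 1.53 for S phase (0.61 without the block) and 2.39 for mitosis (0.66). PBS 4 has no DT library of its number, so it adds nothing to the folds of this fit. With PBS 4 left out and no block, the medians were 1.15 and 1.20. Deviations of same-numbered libraries correlated at 0.0230 to 0.0413, with 0 of 3 pairs over 0.1 and 1 DT library closest to its own number. With 100 or more counts as the limit, DT libraries held 12.3 S phase genes on average, against 17.3 in the same libraries at 1 or more counts. At the limit of 100, PBS 1 to 4 held 11, 8, 9 and 14 S phase genes, and DT 1 to 3 held 8, 14 and 15.

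Of 553 log2 fold changes of 35 named genes under the alternatives, 48 changed sign and 505 kept sign and call. With the Y-linked covariate the sign turned for Ung (6.92), Mcm7 (1.03), Rrm1 (-1.13), Ccna2 (-0.72), Aurka (8.71), Mki67 (8.98), Ccnd1 (-0.081), Cdkn1b (9.78) and Anapc5 (-1.04). It turned with the replicate block for Birc5 (0.63), Cenpf (-0.43), Bub3 (-1.26) and Anapc5 (-0.080), and by limma-voom for Birc5 (0.64), Cdc20 (-0.80), Rpa1 (-0.71), Bub3 (-0.87) and Smc4 (-0.13). It turned with the macrophage score for Pcna (-0.071), Nipbl (-0.26) and Smc1a (0.027), and for Anapc5 with RLE factors (-0.046) and DESeq2 (-0.046). Leaving out 1 library, the sign turned for Pcna (-0.87 to 1.32), Rrm1 (-0.33 to 1.32), Top2a (-2.04 to 3.24), Cdc20 (-1.52 to 3.20), Cenpf (-0.999 to 1.02), Kif23 (-1.52 to 0.045), Tacc3 (-1.02 to 4.49), Cdca3 (-0.045 to 3.59), Rpa1 (-0.27 to 1.05), Bub3 (-1.61 to 0.70), Smc4 (-0.51 to 1.00), Anapc5 (-0.41 to 0.69), Nipbl (-0.25 to 0.51) and Smc1a (-0.75 to 0.063). Fewer libraries or genes enter some of these fits, and otherwise the cause was not tested. Below about 500 counts, zeros were too common for a gene's absence from a library to be read.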

Other observations

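Among the 146 genes of the further lists with counts, 26 had counts only in PBS (17.8%, against 13.8% of all genes with counts) and 24 only in DT (16.4%, against 9.78%). Genes with their reads mostly in 1 group went both ways, and these examples were picked with their values known. Wee1, the kinase that holds Cdk1 inactive before mitosis, had 250, 695, 327 and 234 counts in the PBS libraries and 0, 15 and 0 in the DT libraries. Dbf4, the activator of the Cdc7 kinase that fires replication origins, had 181, 0, 112 and 243 in PBS and 0 in each DT library. Fzr1, the Cdh1 activator of the anaphase-promoting complex, had 0, 593, 221 and 692 in PBS and 0, 30 and 0 in DT. Racgap1, which acts with Kif23 in cytokinesis, had 0, 133, 558 and 300 in PBS and 0, 0 and 37 in DT. In the other direction Dut, which removes dUTP from the nucleotide pool, had 0, 0, 5 and 115 in PBS and 530, 177 and 646 in DT. The groups did not overlap for Wee1 and Dut, as in 6.31% of tested genes, and the edgeR adjusted p was 1.00 for all 5 genes. DESeq2 called none of these 5.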
